A study of Capra hircus with 72 samples.

Results

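The nucleus of the solitary tract (NTS), a strip of the dorsal medulla, was compared between female goats (Capra hircus) that breathed CO2-enriched air and goats that breathed room air. Bulk RNA sequencing libraries of NTS tissue were chosen by the region and condition in their labels: 6 from mild chronic hypercapnia (6% CO2 for 14 days) against 6 from room air (14 days), which makes 12 of the 72 libraries in the series. The series description names the comparison of room air with mild hypercapnia in each region. It covers 4 brain regions and 3 conditions with 6 libraries a group. The third condition in NTS, moderate hypercapnia (7 days at 6% CO2, then 7 days at 8%), supplied 6 more libraries to the estimate of the spread. The sources used here give no strain, age, genotype or drug. The series description gives 6 animals per condition, but the labels do not say that a replicate number marks an animal, so p-values measure the spread between these libraries.

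The NTS receives the afferent fibres of lung, heart, gut and arterial chemoreceptors, and sends their signals on to the respiratory and cardiovascular neurons of the medulla. Its neurons signal with glutamate, GABA, glycine, catecholamines and many neuropeptides. Astrocytes and neurons of the dorsal medulla also respond to CO2 and protons themselves, and the dorsal motor nucleus of the vagus and the hypoglossal nucleus, both made of cholinergic motor neurons, lie directly beside it.

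No gene passed the test between mild hypercapnia and room air. The edgeR quasi-likelihood test with Benjamini-Hochberg adjustment called 0 of 15418 genes at an adjusted p under 0.05 (0.0%), limma with quality weights also called 0, and DESeq2 called 5. An unadjusted p under 0.05 was given to 718 genes, 361 higher (2.34%) and 357 lower (2.32%) in mild hypercapnia. The 718 are 4.66% of those tested, near the share that a threshold of 0.05 gives without any difference. That count was 1800 without mild replicate 2, 1798 without room air replicate 5 and 441 without mild replicate 4, so single libraries moved it. The log2 fold change of mild over room air was above 0 in 7407 genes and below 0 in 8011, with a median of -0.01. All 6 mild libraries lay above all 6 room air libraries in 7 genes (0.0454%) and below them in 13 (0.0843%). The values below are therefore descriptions of these libraries. They centre on genes of blood vessels and of the early response, most of which were lower in mild hypercapnia. They also cover the peptide genes SST, VIP and UCN, which were higher, and TRH, which was lower. The vessel and early response medians moved nearer 0 under some alternatives given below. Of lists with at least 5 tested members, motor neuron markers had the highest median log2 fold change (1.04) and myelin markers the lowest (-0.60).

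The libraries held 16401319 to 21898848 counts in mild hypercapnia and 14652747 to 28117775 in room air, with means of 19072675 ± 2319441 in mild hypercapnia and 20929320 ± 5238199 in room air (SD, n = 6). One read stood for 0.0356 CPM (the count of a gene relative to its scaled library total) in the deepest NTS library and 0.0722 CPM in the shallowest. On simulated counts for these NTS libraries, the same test recovered 38.7% of genes changed 1.5-fold, 71% of those changed 2-fold and 92.1% of those changed 4-fold. Those counts were drawn for each gene on its own, without the shifts in tissue makeup that genes of a real library share. The figures therefore do not tell what share would be recovered from the real libraries. Room air replicates 1 and 5 and mild replicate 2 stood apart from the rest, with the lowest limma quality weights, 0.241, 0.447 and 0.487. They are named below for many of the values they carry, but not for all. For KCNK1, PVALB and ENPP2 room air replicate 1 was the highest of its group. For UCHL1 and STMN2 room air replicate 5 was the highest and mild replicate 2 the lowest of its group. Where 3 values are given for a group, they are its lowest, median and highest library, and a log2 fold change is that of mild over room air with its standard error (SE).

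The tissue carried the marks of the caudal medulla. HOXB5, a homeobox gene of the caudal hindbrain, averaged 159 ± 22.4 CPM in mild NTS and 157 ± 35.6 CPM in room air NTS, against 22.8 ± 8.89 CPM in mild and 41.2 ± 17.8 CPM in room air libraries of the ventral respiratory column (VRC) and under 1 CPM in the retrotrapezoid nucleus (RTN) and medial prefrontal cortex (mPFC). These regional levels are scaled over the mild and room air libraries of all 4 regions. TLX3, which marks NTS neurons, was at 2.31 ± 0.583 CPM in mild NTS and 2.53 ± 1.15 CPM in room air NTS (SD, n = 6). CALCR, a calcitonin receptor gene of NTS neurons, was at 231 ± 79.6 CPM in mild NTS and 184 ± 88.2 CPM in room air NTS. SLC17A7, the glutamate transporter of cortical neurons, was at 4.14 ± 3.05 CPM in mild NTS and 6.27 ± 3.70 CPM in room air NTS, against 691 ± 86.1 CPM in mild and 751 ± 180 CPM in room air mPFC. Of the 25 genes tested in the list of hindbrain and NTS identity, 9 were higher and 16 lower in mild hypercapnia, none with an unadjusted p under 0.05. Their median log2 fold change was -0.12, and it moved to 0.00 with the neuron score as a covariate.

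Transcripts of noradrenergic neurons varied widely within each group. TH, which makes catecholamines in these neurons, stood at 41.6, 64.05 and 126 CPM in mild hypercapnia and 24.8, 94.2 and 124 CPM in room air. DBH, the enzyme that turns dopamine into noradrenaline, stood at 3.12, 5.33 and 9.81 CPM in mild hypercapnia and 2.40, 7.31 and 11.5 CPM in room air. LMX1B, a homeobox gene of dorsal excitatory neurons, had 1.69, 2.39 and 4.66 CPM in mild hypercapnia and 0.492, 3.26 and 6.12 CPM in room air, and HOXA4, another caudal homeobox gene, had 36.8, 42.04 and 48.6 CPM in mild hypercapnia and 32.7, 45.3 and 56.1 CPM in room air. The groups overlapped widely in all of these. LHX5, the member of the identity list with the lowest p, was at 0.342, 0.913 and 1.42 CPM in mild hypercapnia and 0.379, 0.546 and 0.756 CPM in room air (log2 0.57 ± 0.32, adjusted p = 0.848).

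Of all gene lists with at least 5 tested members, the markers of motor neurons and of myelin had the highest and the lowest median log2 fold change. Markers of motor neurons had a median log2 fold change of 1.04 in mild hypercapnia, with 6 of 8 tested genes higher, and markers of myelin and oligodendrocytes one of -0.60, with 16 of 17 lower. Over the 22 alternatives the motor neuron median ran from 0.12, with the neuron score as a covariate, to 1.73, without room air replicate 5. The myelin median was -0.29 without room air replicate 1, -0.05 with the neuron score and -0.03 with its own score as a covariate. The value with its own score is near 0 by construction, since that score is the mean of the same genes. The mean log2 CPM of the motor neuron markers was 5.67, 2.81, 5.21, 5.48, 5.23 and 5.19 in mild replicates 1 to 6, against 1.68, 2.76, 3.86, 4.31, 5.74 and 4.66 in room air replicates 1 to 6. Mild replicate 2 lay among the low room air libraries, and room air replicate 5 was the highest of all 12. Summed over the list, motor neuron markers took 117 to 1755 CPM in mild hypercapnia and 55.7 to 1662 CPM in room air. Myelin markers scored 6.04, 7.66, 6.33, 6.24, 6.43 and 6.92 in the mild libraries, against 8.38, 7.37, 7.22, 7.00, 6.31 and 6.70 in room air. In room air the order of the libraries was the reverse of that for motor neuron markers, and over all 12 room air replicate 1 was highest and mild replicate 1 lowest. Their summed level was 7556 to 25581 CPM in mild hypercapnia and 9246 to 43392 CPM in room air, and no member of either list was at 0 in every library. In bulk tissue, fewer cells of a type and less RNA per cell cannot be told apart.

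**Figure D1:**
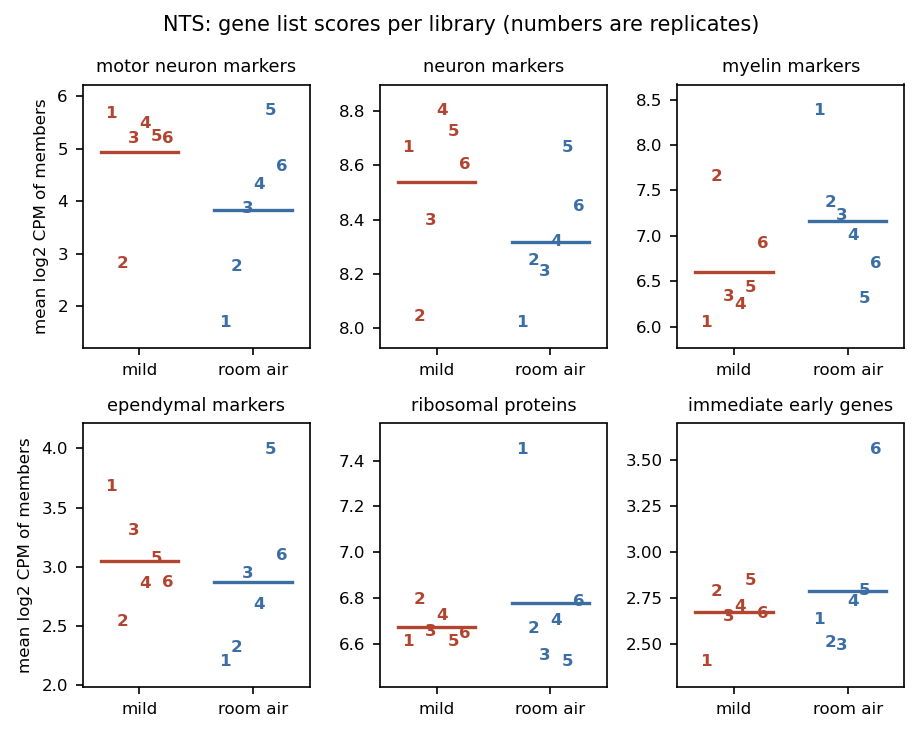
Scores of 6 gene lists in each NTS library, as the mean log2 CPM of the tested members (vertical axes), for mild hypercapnia on the left and room air on the right of each panel. Digits are replicate numbers and lines are group means. Mild replicate 2 sits low for motor neuron markers and high for myelin markers, room air replicate 1 sits highest for myelin and ribosomal proteins, and room air replicate 6 highest for immediate early genes.

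Single markers showed the size of these differences. CHAT, the enzyme that makes acetylcholine, stood at 3.85, 31.8 and 79.6 CPM in mild hypercapnia and 1.05, 13.4 and 54.9 CPM in room air. PRPH, an intermediate filament of motor and sensory neurons, ran over 67.4, 896 and 1274 CPM in mild hypercapnia and 28.96, 279 and 1130.1 CPM in room air, and ISL1, a transcription factor of motor neurons, over 2.14, 27.3 and 42.8 CPM in mild hypercapnia and 0.0703, 6.81 and 37.2 CPM in room air. SLC5A7, the choline transporter, stood at 14.3, 119 and 199 CPM in mild hypercapnia and 9.35, 43.1 and 159 CPM in room air. In all 4 genes the lowest mild library was replicate 2 and the lowest room air library replicate 1. PRPH had a log2 fold change of 1.05 ± 0.73 and ISL1 one of 1.22 ± 0.79, and without room air replicate 5 it was 1.704 for PRPH and 2.08 for ISL1. With the neuron score as a covariate it was 0.067 for PRPH and 0.25 for ISL1. AOX1, an aldehyde oxidase, was the motor neuron list member with the lowest p and had 4.18, 10.7 and 17.5 CPM in mild hypercapnia against 4.08, 4.88 and 10.7 CPM in room air (log2 0.84 ± 0.33, adjusted p = 0.848).

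Myelin genes had lower medians in mild hypercapnia. ERMN, a cytoskeletal protein of late oligodendrocytes, stood at 176, 188 and 397 CPM in mild hypercapnia against 171, 314 and 1001 CPM in room air (log2 -0.82 ± 0.38). MOG, a protein of the outer myelin surface, had 156, 221 and 477 CPM in mild hypercapnia against 182, 324 and 895 CPM in room air. ASPA, which breaks down N-acetylaspartate, had 13.8, 20.1 and 33.7 CPM in mild hypercapnia and 24.7, 26.97 and 48.5 CPM in room air (log2 -0.50 ± 0.21), and MYRF, the transcription factor that turns on myelin genes, had 0.285, 0.919 and 2.23 CPM in mild hypercapnia and 0.925, 1.80 and 4.50 CPM in room air (log2 -0.98 ± 0.45). ASPA, MYRF and ERMN were the 3 list members with an unadjusted p under 0.05, and all 3 had an adjusted p of 0.848. Mild replicate 2 and room air replicate 1 were the highest libraries of their groups in each of these genes. Without room air replicate 1 the log2 fold change was -0.33 for ERMN, -0.62 for MYRF and -0.32 for ASPA. NKX2-2, an oligodendrocyte lineage factor, was the precursor marker with the lowest p, with 6.52, 7.01 and 14.1 CPM in mild hypercapnia and 7.32, 10.4 and 21.4 CPM in room air (log2 -0.49 ± 0.27), and 11 of 13 precursor markers were lower, none with an unadjusted p under 0.05.

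Genes of blood vessels were among those with the lowest p, and most were lower in mild hypercapnia. Of 26 genes of endothelial Notch and VEGF signalling, 19 were lower and 7 higher in mild hypercapnia, with a median log2 fold change of -0.28. That list was drawn up with earlier results of these data known, APOLD1 and THSD1 among them, so its direction is no independent evidence. An unadjusted p under 0.05 was given to 6 lower genes and 1 higher gene. The median stayed below 0 under all 22 alternatives but shrank to -0.04 with the myelin score and -0.02 with the neuron score as a covariate.

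APOLD1 (ENSCHIG00000008149, chromosome 5), a gene that endothelial cells switch on within minutes to hours of stimulation, had the lowest p of all. It stood at 1.48, 2.14, 1.65, 0.797, 0.490 and 1.87 CPM in mild replicates 1 to 6, against 5.13, 4.26, 6.18, 5.35, 2.40 and 19.5 CPM in room air. Every mild library was below every room air library, and room air replicate 6 was far above the others. The log2 fold change was -2.33 ± 0.46 (SE) with an edgeR adjusted p of 0.765, and -1.72 without room air replicate 6. DESeq2 called it with an adjusted p of 0.0016. Room air replicate 6 also had the highest immediate early gene score of the 12, and the part of that in the APOLD1 value was not tested beyond leaving it out.

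ANGPT2 (ENSCHIG00000019161, chromosome 27), a ligand of the endothelial receptor TEK that loosens vessels for growth, had 2.56, 4.33 and 6.22 CPM in mild hypercapnia, against 5.74, 7.58 and 8.65 CPM in room air. All but mild replicate 6 were below the lowest room air library. Its log2 fold change was -0.75 ± 0.18 with an adjusted p of 0.848. THSD1 (ENSCHIG00000016392, chromosome 12), a membrane protein of endothelial cells, stood at 13.8, 21.2, 19.97, 16.8, 20.2 and 18.5 CPM in the mild libraries, against 31.2, 21.5, 27.4, 24.5, 26.1 and 22.3 CPM in room air. The groups did not overlap, though mild replicate 2 and room air replicate 2 nearly met. Its log2 fold change was -0.47 ± 0.12 with an adjusted p of 0.848. Under moderate hypercapnia THSD1 passed the same test, at -0.78 ± 0.12 with an adjusted p of 0.046 against the same room air libraries.

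Receptors of the VEGF and Notch pathways and the Notch ligand DLL4 were also lower. FLT1, a VEGF receptor that also acts as a decoy, had 21.1, 23.6 and 36.2 CPM in mild hypercapnia and 29.96, 33.6 and 36.1 CPM in room air (log2 -0.35 ± 0.13). KDR, the main signalling VEGF receptor of endothelium, had 46.2, 63.6 and 92.8 CPM in mild hypercapnia and 66.5, 74.3 and 144 CPM in room air (log2 -0.35 ± 0.20). NOTCH1 had 7.62, 13.2 and 24.6 CPM in mild hypercapnia and 15.96, 21.7 and 28.9 CPM in room air (log2 -0.64 ± 0.24), and DLL4, its ligand in endothelial tip cells, 3.70, 4.51 and 6.75 CPM in mild hypercapnia and 5.87, 6.16 and 9.81 CPM in room air (log2 -0.48 ± 0.22). For FLT1 and NOTCH1 mild replicate 2 stood as high as the room air libraries, so the groups overlapped. For KDR the groups overlapped as well, with room air replicate 1 highest and an unadjusted edgeR p of 0.104. With the myelin and neuron scores as covariates the log2 fold change of KDR was -0.04 and -0.095. That of FLT1 was -0.30 and -0.26, that of NOTCH1 -0.56 and -0.50 and that of DLL4 -0.53 and -0.57. HES5, a Notch target of neural progenitors and astrocytes, ran the other way, with 7.72, 14.6 and 19.4 CPM in mild hypercapnia against 4.92, 9.27 and 10.4 CPM in room air (log2 0.75 ± 0.28). The adjusted p was 0.848 for each of these 5 genes.

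**Figure D2:**
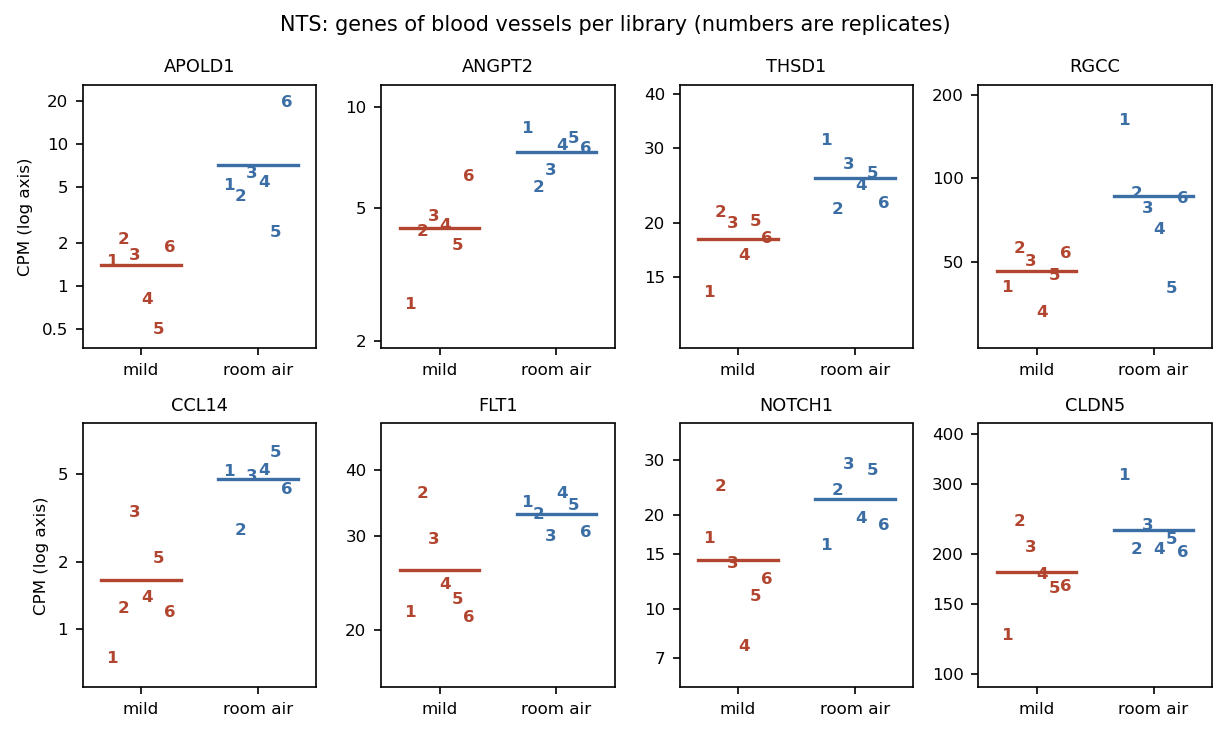
CPM on log axes of 8 genes of blood vessels in the NTS libraries, with mild hypercapnia left and room air right. Digits are replicate numbers and lines are group means. The mild libraries lie below all room air libraries for APOLD1 and THSD1, and the groups overlap in the other 6.

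Other genes known from vessel walls filled out the lower side. RGCC, a cell cycle regulator induced in endothelium, stood at 33.02, 47.4 and 56.1 CPM in mild hypercapnia and 40.3, 81.2 and 161 CPM in room air (log2 -0.90 ± 0.24), with room air replicate 1 highest and room air replicate 5 within the mild range. CCL14, a chemokine, had 0.740, 1.32 and 3.35 CPM in mild hypercapnia and 2.78, 4.99 and 6.23 CPM in room air (log2 -1.51 ± 0.37). All but mild replicate 3 were below the lowest CCL14 value of room air. CLDN5, the tight junction protein of the blood-brain barrier, had 125, 172 and 242 CPM in mild hypercapnia and 201, 212 and 315 CPM in room air (log2 -0.35 ± 0.16). The 14 endothelial markers summed to 709 to 1188 CPM in mild hypercapnia (median 845) and 876 to 1214 CPM in room air (median 1026), and 9 of them were lower and 5 higher. Their median log2 fold change was -0.11, and the part of endothelial content in the values above was not tested. Among pericyte and smooth muscle markers, 6 were higher and 7 lower: MCAM, an adhesion molecule of vessel walls, had 56.6, 62.5 and 68.2 CPM in mild hypercapnia and 38.7, 48.1 and 57.4 CPM in room air (log2 0.38 ± 0.12), and ABCC9, a subunit of the pericyte potassium channel, had 3.23, 3.47 and 8.62 CPM in mild hypercapnia and 4.85, 6.99 and 8.81 CPM in room air (log2 -0.69 ± 0.23). Each gene of the last 5 values had an adjusted p of 0.848.

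Peptide genes were higher in mild hypercapnia more often than lower. Of 30 genes for visceral neuropeptides tested, 18 were higher and 12 lower in mild hypercapnia, with a median log2 fold change of 0.12 that ran from 0.02 to 0.23 over the 22 alternatives. Neuron and motor neuron markers also had positive medians, 0.14 and 1.04, and with the myelin and neuron scores as covariates the peptide median was 0.17 and 0.12. An unadjusted p under 0.05 went to 3 higher genes, SST, UCN and VIP, and to 1 lower gene, TRH. Per length, the most abundant peptide transcripts were those of SCG2, a granule protein that yields secretoneurin, with 1198 ± 352 RPKM (reads relative to gene length and library total) in mild hypercapnia and 867 ± 302 RPKM in room air, and of PENK, the enkephalin precursor, with 689 ± 183 RPKM in mild hypercapnia and 616 ± 270.0 RPKM in room air (SD, n = 6). SST came next, at 517 ± 160 RPKM in mild hypercapnia and 263 ± 121 RPKM in room air. GAL, the galanin gene, stood at 213 ± 90.8 RPKM in mild hypercapnia and 156 ± 106 RPKM in room air, and ADCYAP1, which encodes PACAP, a peptide involved in breathing responses to CO2, at 159 ± 59.2 RPKM in mild hypercapnia and 94.3 ± 53.2 RPKM in room air.

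SST (ENSCHIG00000006692, chromosome 1) encodes somatostatin, an inhibitory peptide of NTS interneurons. It stood at 1183, 695, 724, 1657, 1374 and 1083 CPM in mild replicates 1 to 6, against 239.8, 414, 540.3, 494, 1017 and 666 CPM in room air. Mild replicates 2 and 3 lay in the range of the room air libraries, and room air replicate 5 reached that of the mild ones. The log2 fold change was 0.99 ± 0.28 with an adjusted p of 0.848, and each mild library was above the room air median. With the neuron score as a covariate it was 0.59, and with the myelin score 0.71. ADCYAP1 had 201, 676 and 918 CPM in mild hypercapnia and 70.8, 375 and 629 CPM in room air (log2 0.77 ± 0.43, adjusted p = 0.848), and a log2 fold change of 0.21 with the myelin score and 0.16 with the neuron score.

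VIP (ENSCHIG00000015334, chromosome 9) encodes vasoactive intestinal peptide, a vasodilator and transmitter. It had 0.523, 5.44 and 9.76 CPM in mild hypercapnia, against 0.633, 1.25 and 2.52 CPM in room air. Mild replicate 2 was the lowest of all 12 libraries, while the other 5 mild libraries were above every room air library. The log2 fold change was 1.86 ± 0.66 with an adjusted p of 0.848. UCN (ENSCHIG00000026159, chromosome 11), the urocortin gene of the corticotropin-releasing family, had 0.238, 1.38 and 2.70 CPM in mild hypercapnia and 0.0855, 0.178 and 0.757 CPM in room air. With the myelin and neuron scores as covariates the log2 fold change was 1.06 and 1.349 for VIP and 1.91 and 1.37 for UCN. The low end and the median of UCN in room air stood for a few reads. Its log2 fold change was 2.28 ± 0.68 with an adjusted p of 0.848. TRH (ENSCHIG00000025325, chromosome 22), thyrotropin-releasing hormone, an excitatory peptide of respiratory and vagal circuits, had 5.28, 16.8 and 27.3 CPM in mild hypercapnia against 13.4, 28.02 and 41.9 CPM in room air. Each mild library was below the room air median of TRH, and the groups overlapped (log2 -0.72 ± 0.33, adjusted p = 0.848).

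Of 40 neuropeptide receptor genes, 24 were higher and 16 lower, with 2 each at an unadjusted p under 0.05. OXTR, the oxytocin receptor, had 2.28, 4.74 and 8.76 CPM in mild hypercapnia and 0.829, 1.32 and 6.60 CPM in room air (log2 1.15 ± 0.49), and room air replicate 5 was again within the mild range. NTSR1, a neurotensin receptor, had 2.00, 7.70 and 13.6 CPM in mild hypercapnia against 0.141, 2.29 and 6.94 CPM in room air (log2 1.21 ± 0.57). GLP1R, the receptor for the glucagon-like peptide that NTS neurons release, had 1.09, 2.00 and 2.82 CPM in mild hypercapnia against 2.17, 2.62 and 3.62 CPM in room air (log2 -0.50 ± 0.22), and RAMP1, a partner protein of the CGRP receptor, 37.7, 43.1 and 55.3 CPM in mild hypercapnia against 41.6, 51.7 and 90.9 CPM in room air (log2 -0.38 ± 0.18). The adjusted p was 0.848 for all 4.

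**Figure D3:**
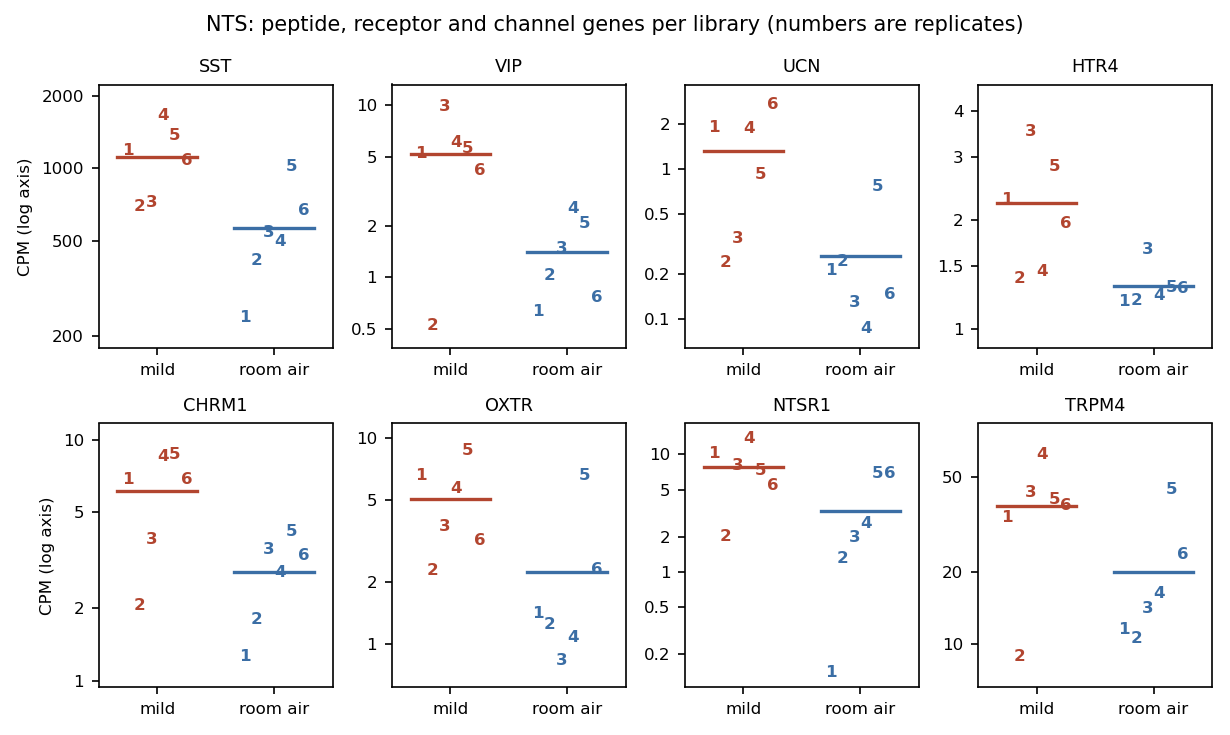
CPM on log axes of 8 peptide, receptor and channel genes in the NTS libraries, with mild hypercapnia left and room air right. Digits are replicate numbers and lines are group means. Mild replicate 2 lies within or below the room air range in all 8 genes, and room air replicate 5 lies with the mild libraries for SST, UCN, OXTR, NTSR1 and TRPM4.

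Small-molecule transmitter genes gave no shared direction. Of 16 cholinergic genes 13 were higher, with a median log2 fold change of 0.27. That list shares CHAT, SLC5A7 and SLC18A3 with the motor neuron markers. Its median was 0.035 with the myelin score and 0.037 with the neuron score as a covariate. CHRM1, a muscarinic receptor, had 2.04, 6.82 and 8.64 CPM in mild hypercapnia and 1.27, 3.07 and 4.16 CPM in room air (log2 1.12 ± 0.36, adjusted p = 0.848). Of 19 catecholamine genes 13 were higher, and GCH1, which makes the cofactor of TH, led them with 8.79, 14.1 and 19.8 CPM in mild hypercapnia against 5.83, 10.6 and 15.3 CPM in room air (log2 0.47 ± 0.22). Of 10 serotonin genes 8 were higher. HTR4, a serotonin receptor that excites respiratory neurons, had 1.38, 2.12 and 3.52 CPM in mild hypercapnia against 1.20, 1.27 and 1.66 CPM in room air (log2 0.76 ± 0.24, adjusted p = 0.848), with all mild libraries above the room air median.

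Among 26 glutamate genes 11 were higher and 15 lower. SLC17A6, the vesicular glutamate transporter of brainstem neurons, stood at 70.3, 96.02 and 116 CPM in mild hypercapnia and 76.6, 125 and 137 CPM in room air. Of 28 genes of GABA and glycine 10 were higher and 18 lower, none with an unadjusted p under 0.05. SLC32A1, the vesicular transporter of GABA and glycine, stood at 7.69, 11.3 and 14.01 CPM in mild hypercapnia and 7.97, 11.4 and 12.8 CPM in room air, and SLC6A5, the glycine transporter, at 21.2, 35.1 and 77.9 CPM in mild hypercapnia and 36.1, 44.6 and 90.8 CPM in room air. Their groups overlapped throughout.

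Of 35 potassium, sodium and HCN channel genes 20 were higher and 15 lower. TRPM4, a cation channel opened by calcium and linked to respiratory bursting in rodents, had 8.89, 39.1 and 61.8 CPM in mild hypercapnia against 10.6, 15.1 and 44.1 CPM in room air (log2 0.91 ± 0.41). KCNH7, a potassium channel, had 1.57, 2.87 and 3.15 CPM in mild hypercapnia against 1.06, 1.67 and 2.10 CPM in room air (log2 0.68 ± 0.31). Both had an adjusted p of 0.848, and mild replicate 2 was lowest of its group for TRPM4.

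Genes proposed as CO2 and proton sensors lay on both sides of room air. Of 20 tested, 9 were higher and 11 lower, with a median log2 fold change of -0.10, which was 0.03 without room air replicate 3. KCNJ10 (ENSCHIG00000001309, chromosome 3), an inwardly rectifying potassium channel of astrocytes that protons close, stood at 75.0, 115, 82.1, 59.0, 74.2 and 79.2 CPM in mild replicates 1 to 6, against 101, 129, 128, 113, 93.3 and 95.3 CPM in room air. All mild libraries but replicate 2 were below every room air library. The log2 fold change was -0.45 ± 0.15 with an adjusted p of 0.848, and it was -0.28 with the neuron score as a covariate. KCNK1, a two-pore potassium channel, had 78.5, 93.99 and 145 CPM in mild hypercapnia against 76.5, 145 and 257 CPM in room air (log2 -0.54 ± 0.22, adjusted p = 0.848). GPR4, a receptor that protons activate, which serves CO2 sensing in the RTN of mice, had 4.90, 6.08 and 7.37 CPM in mild hypercapnia against 4.84, 7.59 and 9.28 CPM in room air (log2 -0.30 ± 0.15, adjusted p = 0.848). KCNJ10 sits in the list of sensors and not in that of astrocytes, where 15 of 17 genes were lower with a median of -0.09. The astrocyte markers summed to 22018 to 34661 CPM in mild hypercapnia and 20402 to 33352 CPM in room air. ATP1B2, a sodium pump subunit of astrocytes, was the only one of them with an unadjusted p under 0.05, with 129, 159 and 244 CPM in mild hypercapnia against 194, 208 and 255 CPM in room air (log2 -0.36 ± 0.13). AQP4, the water channel of astrocyte endfeet, stood at 289, 325 and 450.5 CPM in mild hypercapnia and 262, 351 and 449 CPM in room air.

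Of 26 carbonic anhydrases and acid-base transporters 12 were higher and 14 lower. The 1 with an unadjusted p under 0.05 was SLC9A9, an endosomal sodium-proton exchanger, with 3.64, 6.37 and 7.27 CPM in mild hypercapnia against 6.20, 6.83 and 18.3 CPM in room air (log2 -0.51 ± 0.24, adjusted p = 0.848). Room air replicate 1 carried the high end of SLC9A9, and without it the log2 fold change was -0.17. Of 21 purine genes 9 were higher and 12 lower, led by P2RY12, the ADP receptor of microglia, with 45.9, 51.1 and 81.1 CPM in mild hypercapnia against 27.3, 39.3 and 57.9 CPM in room air (log2 0.42 ± 0.20).

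Activity and stress hormone genes were lower for the most part. Of 28 immediate early genes 20 were lower and 8 higher, with a median log2 fold change of -0.25. It stayed below 0 under all 22 alternatives (-0.33 to -0.06) and was nearest 0 without room air replicate 6. DUSP1, a phosphatase that shuts down MAP kinases, had 52.7, 56.1 and 65.7 CPM in mild hypercapnia and 50.6, 69.5 and 136 CPM in room air (log2 -0.44 ± 0.18). CSRNP1, a transcription factor, had 10.2, 11.6 and 22.1 CPM in mild hypercapnia against 13.1, 17.7 and 28.96 CPM in room air (log2 -0.57 ± 0.25), and NPAS4, a neuronal activity gene, 0, 0.180 and 0.919 CPM in mild hypercapnia against 0.0703, 0.506 and 5.10 CPM in room air (log2 -1.88 ± 0.90). The low end of NPAS4 in both groups and its mild median stood for a few reads at most. FOS had 16.3, 20.9 and 38.9 CPM in mild hypercapnia and 16.01, 21.9 and 59.8 CPM in room air (log2 -0.27 ± 0.34), and 0.12 without room air replicate 6. That library was highest for DUSP1, NPAS4 and FOS, and without it the log2 fold change was -0.21 for DUSP1 and -0.73 for NPAS4. Its list score was 3.56 mean log2 CPM, against 2.50 to 2.79 in the other room air libraries and 2.41 to 2.85 in mild hypercapnia.

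Of 16 glucocorticoid-responsive genes 11 were lower and 5 higher. Their median log2 fold change was -0.17, and it shrank to -0.02 with the myelin score and -0.04 with the neuron score as a covariate. SGK1, a kinase that glucocorticoids induce, had 103, 116 and 145 CPM in mild hypercapnia and 115, 161 and 227 CPM in room air (log2 -0.39 ± 0.13), with each mild library below the room air median. NFKBIA, the inhibitor of NF-kappa-B, had 59.6, 73.6 and 116 CPM in mild hypercapnia against 65.3, 116 and 195 CPM in room air (log2 -0.66 ± 0.26), and DDIT4, a brake on mTOR, 70.7, 80.4 and 113 CPM in mild hypercapnia against 100.1, 105 and 125 CPM in room air (log2 -0.33 ± 0.14). All 3 had an adjusted p of 0.848. TEF, a clock output factor, had 1.79, 2.56 and 3.30 CPM in mild hypercapnia against 2.73, 3.50 and 4.57 CPM in room air (log2 -0.44 ± 0.21), in a clock list with 14 of 19 genes lower. The clock median was -0.10, and it was -0.02 with the myelin score and 0.02 with the neuron score. The time of day of sampling is not given in the sources used here.

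Genes of hypoxia and glycolysis were divided, 11 higher and 15 lower. SLC2A3, the glucose transporter of neurons, had 89.5, 176 and 189.6 CPM in mild hypercapnia against 66.9, 108 and 187 CPM in room air (log2 0.52 ± 0.23), and ADM, the vasodilator adrenomedullin, 3.40, 6.32 and 7.75 CPM in mild hypercapnia against 6.22, 8.12 and 15.3 CPM in room air (log2 -0.62 ± 0.26). Each mild library lay below the room air median of ADM. Of 22 cholesterol synthesis genes 18 were higher, with a median of 0.15. That median was 0.004 with the myelin score and 0.008 with the neuron score as a covariate. TM7SF2, a sterol reductase, had 237, 251 and 289 CPM in mild hypercapnia against 196, 209.5 and 281 CPM in room air (log2 0.21 ± 0.09, adjusted p = 0.848). The list of heat shock and the unfolded protein response was led by HSPB1, a small heat shock protein, with 246, 328 and 396 CPM in mild hypercapnia against 158, 232 and 368 CPM in room air (log2 0.41 ± 0.18). It had 8 genes higher and 12 lower.

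All 19 ribosomal protein genes were lower, with a median of -0.14, none with an unadjusted p under 0.05. RPL15 had the lowest p, at 276, 287 and 314 CPM in mild hypercapnia against 269.8, 322 and 349.9 CPM in room air (log2 -0.14 ± 0.07). Room air replicate 1 scored 7.45 mean log2 CPM on these genes, against 6.52 to 6.79 in the other room air libraries and 6.61 to 6.79 in mild hypercapnia. Without it the list median was 0.02. Reads shared by near-identical ribosomal genes may have been split, so these values are uncertain. Of 20 nuclear genes of oxidative phosphorylation 9 were higher and 11 lower, and NDUFS1, a complex I subunit, had 159.9, 208 and 235 CPM in mild hypercapnia against 133, 175 and 234 CPM in room air (log2 0.20 ± 0.12).

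Immune lists had positive medians in mild hypercapnia, most of them small. Of 12 leukocyte markers 11 were higher in mild hypercapnia (median 0.40), as were 20 of 27 interferon response genes (0.12), 8 of 12 antigen presentation genes (0.08), 17 of 30 cytokine and inflammation genes (0.01) and 12 of 18 markers of microglia and macrophages (0.15). CX3CR1, the fractalkine receptor of microglia, had 46.9, 66.2 and 81.3 CPM in mild hypercapnia and 27.4, 46.4 and 72.2 CPM in room air (log2 0.41 ± 0.19, adjusted p = 0.848). CD79A, a B cell gene, had 0.797, 1.22 and 2.21 CPM in mild hypercapnia against 0.577, 0.974 and 1.37 CPM in room air (log2 0.47 ± 0.28), and DHX58, an interferon-induced RNA sensor, 39.1, 41.6 and 62.6 CPM in mild hypercapnia against 33.1, 36.8 and 58.3 CPM in room air (log2 0.21 ± 0.14). CIITA, the switch of class II antigen presentation, had 3.29, 4.63 and 10.9 CPM in mild hypercapnia against 1.89, 3.82 and 7.10 CPM in room air (log2 0.50 ± 0.38). RELA, a subunit of NF-kappa-B, was lower, with 27.9, 35.7 and 40.5 CPM in mild hypercapnia against 34.9, 39.8 and 50.3 CPM in room air (log2 -0.24 ± 0.12). None of these last 4 had an unadjusted p under 0.05. The medians of the interferon, antigen presentation and cytokine lists were below 0 under 2, 5 and 5 of the 22 alternatives. The leukocyte median ran from 0.07, without mild replicate 5, to 0.97, without the 3 libraries of lowest quality weight. The leukocyte markers summed to 64.6 to 148 CPM in mild hypercapnia and 62.2 to 123 CPM in room air.

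**Figure D4:**
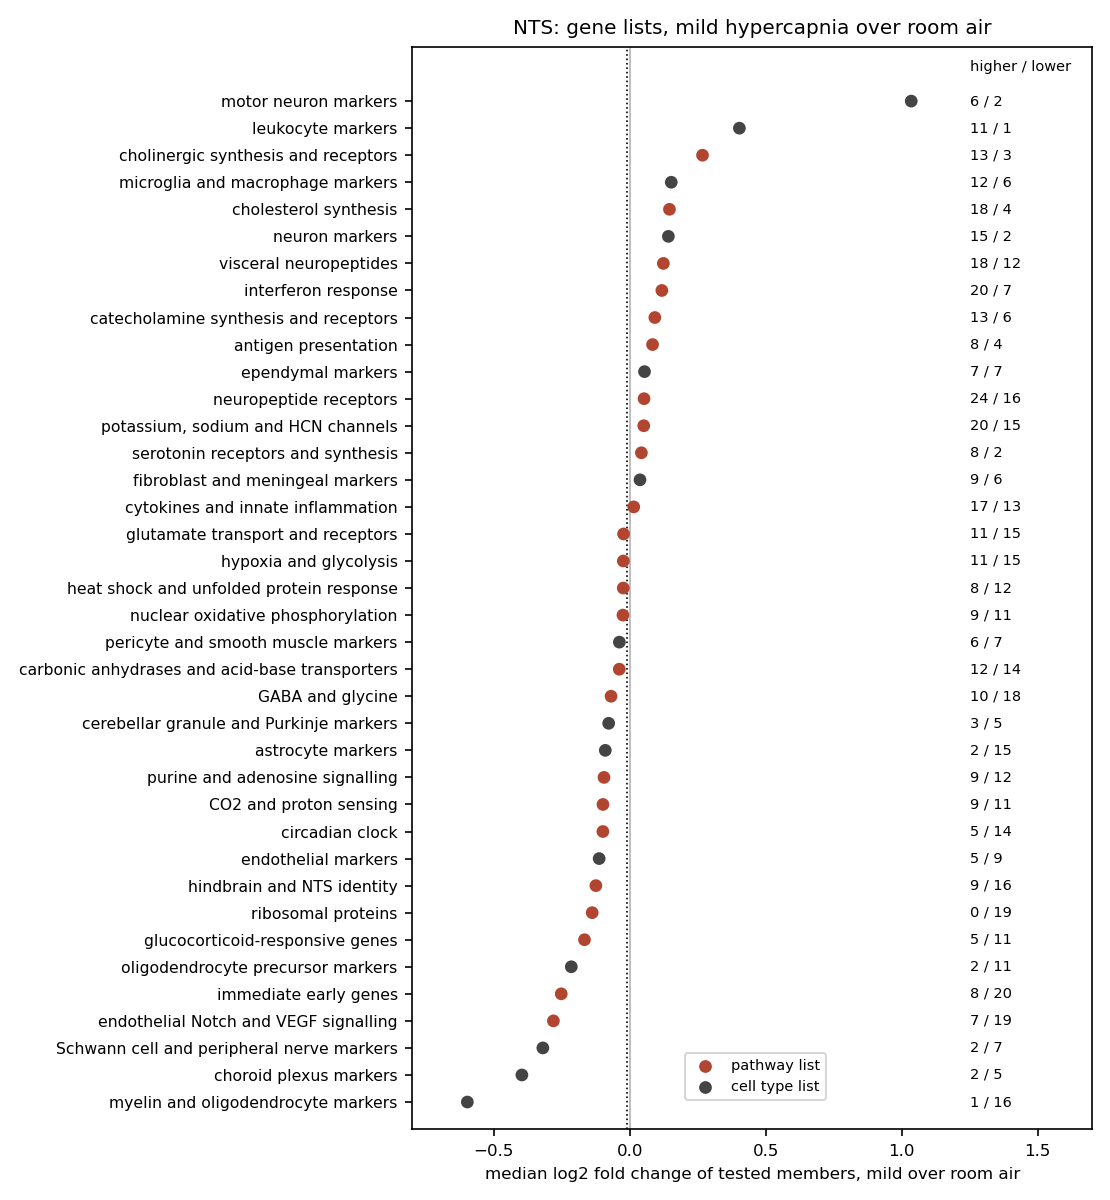
Median log2 fold change of mild hypercapnia over room air for the tested members of each gene list with at least 5 (points), with the number of members higher and lower at the right. The dotted line is the median of all 15418 genes. Motor neuron markers lie highest at 1.04 and myelin markers lowest at -0.60, while no member of any list passed the test.

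Markers of other tissue that a dissected piece could hold also varied. Of 17 neuron markers 15 were higher (median 0.14): UCHL1 had 1502, 3110.4 and 3995 CPM in mild hypercapnia and 1669, 1878 and 3032 CPM in room air (log2 0.48 ± 0.20), STMN2 701, 1572 and 1908 CPM in mild hypercapnia and 748, 945 and 1581 CPM in room air (log2 0.50 ± 0.23), and INA 564, 851 and 916 CPM in mild hypercapnia and 585, 648 and 783 CPM in room air (log2 0.25 ± 0.11). RBFOX3, which encodes the neuronal nuclear protein NeuN, ran the other way, with 4.03, 6.86 and 7.51 CPM in mild hypercapnia against 4.75, 8.33 and 14.1 CPM in room air (log2 -0.50 ± 0.23). The adjusted p of all 4 was 0.848. Ependymal markers gave 7 genes higher and 7 lower, and room air replicate 5 scored highest on them. DNAI1, a dynein of motile cilia, had 169, 192 and 243 CPM in mild hypercapnia against 182, 218 and 257 CPM in room air (log2 -0.16 ± 0.12). TTR, the main product of choroid plexus, stood at 2.04, 13.3 and 51.8 CPM in mild hypercapnia and 0.893, 2.47 and 309.7 CPM in room air, with room air replicate 5 far above all others. ENPP2, an enzyme of choroid plexus that oligodendrocytes also make, had 238, 293 and 455 CPM in mild hypercapnia against 288, 456 and 764 CPM in room air (log2 -0.52 ± 0.21), in a list with 5 of 7 genes lower.

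CDH19 (ENSCHIG00000009966, chromosome 24), a cadherin of Schwann cells, had 2.57, 3.18 and 7.56 CPM in mild hypercapnia and 4.71, 7.85 and 16.6 CPM in room air (log2 -1.12 ± 0.33, adjusted p = 0.848), and 7 of 9 Schwann cell and peripheral nerve markers were lower. The median of that list was -0.32, and 0.09 without room air replicate 1. COL6A3, a collagen of meningeal fibroblasts, had 12.6, 16.1 and 24.8 CPM in mild hypercapnia against 4.16, 8.84 and 17.9 CPM in room air (log2 0.80 ± 0.38), with 9 of 15 fibroblast markers higher. PVALB, found in Purkinje cells and in other fast-firing neurons, had 5.96, 7.80 and 25.8 CPM in mild hypercapnia against 7.45, 17.98 and 65.2 CPM in room air (log2 -1.04 ± 0.55), with 5 of 8 cerebellar markers lower. AHSP, the 1 erythroid marker tested, had 0.686, 0.968 and 2.76 CPM in mild hypercapnia against 0.574, 1.10 and 1.68 CPM in room air (log2 0.33 ± 0.39). The part of tissue makeup in the values of other genes was not tested beyond the fits with a myelin or neuron score, which left 387 and 333 genes with an unadjusted p under 0.05. Of the 105 genes chosen for naming, the log2 fold change shrank by more than 1.5 times in 45 with the myelin score and in 52 with the neuron score. Many of them were chosen by low p and some are members of these scores, so part of that shrinkage is built in. The share over all genes tested was not computed, so these counts do not measure the part of makeup.

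Outside the lists, the genes with the lowest p had moderate levels and varied roles. SH2D4B (ENSCHIG00000000351, chromosome 28) had 4.66, 7.56 and 10.7 CPM in mild hypercapnia and 0.6249, 1.59 and 4.96 CPM in room air. Room air replicate 4 was the only library of its group within the mild range. Its log2 fold change was 1.89 ± 0.40 with an edgeR adjusted p of 0.765. Without room air replicate 4 edgeR called it with an adjusted p of 0.0365, and DESeq2 called it on all libraries with one of 0.0092. LCMT2, an enzyme of tRNA modification, had 10.1, 14.7 and 15.95 CPM in mild hypercapnia against 8.73, 9.38 and 11.7 CPM in room air (log2 0.54 ± 0.12), CDK15, a cyclin-dependent kinase, 4.47, 6.64 and 9.87 CPM in mild hypercapnia against 1.20, 3.37 and 5.34 CPM in room air (log2 1.02 ± 0.26), and GREB1, known as a gene that oestrogen induces, 1.38, 2.76 and 3.68 CPM in mild hypercapnia against 0.859, 1.18 and 1.76 CPM in room air (log2 1.19 ± 0.31). In these 4 genes each mild library was above the room air median.

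LIPA, the acid lipase of lysosomes, had 48.3, 87.03 and 107 CPM in mild hypercapnia against 42.6, 51.9 and 81.1 CPM in room air (log2 0.62 ± 0.18). SEMA5B, a semaphorin of axon guidance, had 12.98, 20.7 and 26.9 CPM in mild hypercapnia against 8.15, 10.1 and 22.4 CPM in room air (log2 0.82 ± 0.24), with room air replicate 5 in the mild range. MGAT5, which branches N-glycans in the Golgi, had 8.89, 9.34 and 12.7 CPM in mild hypercapnia against 5.77, 6.92 and 7.38 CPM in room air (log2 0.52 ± 0.16) and was the only one of the 12 higher genes chosen by p whose groups did not overlap. TBL3, a nucleolar protein of ribosome assembly, had 44.6, 67.1 and 72.5 CPM in mild hypercapnia against 38.4, 47.3 and 58.00 CPM in room air (log2 0.40 ± 0.12), and GOLM1, a Golgi membrane protein, 90.2, 108 and 115 CPM in mild hypercapnia against 63.6, 84.9 and 95.3 CPM in room air (log2 0.34 ± 0.10). CCDC28A had 40.9, 45.4 and 61.2 CPM in mild hypercapnia against 34.4, 36.7 and 41.05 CPM in room air (log2 0.33 ± 0.10), and WDR31 6.23, 8.16 and 15.9 CPM in mild hypercapnia against 4.59, 5.43 and 6.54 CPM in room air (log2 0.73 ± 0.22).

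On the lower side, DAGLA, which makes the endocannabinoid 2-arachidonoylglycerol in neurons, had 6.74, 7.93 and 10.1 CPM in mild hypercapnia against 10.4, 11.96 and 15.6 CPM in room air (log2 -0.59 ± 0.16). SPRED1, an inhibitor of Ras signalling, had 11.01, 14.1 and 17.2 CPM in mild hypercapnia against 17.6, 17.9 and 20.7 CPM in room air (log2 -0.40 ± 0.12), and LIX1L 3.57, 4.65 and 5.61 CPM in mild hypercapnia against 5.69, 6.23 and 8.27 CPM in room air (log2 -0.52 ± 0.14). In these 3 genes every mild library was below every room air library. LDLRAD3, a receptor of the LDL receptor class, had 41.02, 47.7 and 60.7 CPM in mild hypercapnia against 53.4, 63.1 and 79.6 CPM in room air (log2 -0.42 ± 0.11). SFRP5, a secreted inhibitor of Wnt, had 0.624, 1.15 and 2.02 CPM in mild hypercapnia against 0.956, 3.04 and 8.08 CPM in room air (log2 -1.59 ± 0.47), and S100A14, a calcium-binding protein, 10.1, 11.1 and 15.4 CPM in mild hypercapnia against 13.4, 15.8 and 28.9 CPM in room air (log2 -0.58 ± 0.17). The edgeR adjusted p was 0.848 for each of the genes in this paragraph.

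DESeq2 called 3 further genes, all without a symbol and all lower in mild hypercapnia. ENSCHIG00000000053 had 0.777, 1.31 and 2.19 CPM in mild hypercapnia against 1.11, 7.98 and 14.5 CPM in room air (log2 -2.40 ± 0.56, DESeq2 adjusted p = 0.0092). Room air replicate 4 lay within the mild range and the other 5 were above it. ENSCHIG00000014169 on chromosome 3 had 21.1, 24.5 and 38.5 CPM in mild hypercapnia against 31.1, 60.97 and 68.7 CPM in room air (log2 -1.02 ± 0.21, DESeq2 adjusted p = 0.0092), with mild replicate 2 highest of its group and the groups overlapping.

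Moderate hypercapnia was set against the same room air libraries, so its values share them with those of mild hypercapnia. It gave 2073 genes an unadjusted p under 0.05 (13.4%), and moderate against mild hypercapnia gave 620 (4.02%). SST had a log2 fold change of 0.99 ± 0.28 in mild and 0.80 ± 0.28 in moderate hypercapnia, and VIP 1.86 ± 0.66 in mild and 2.54 ± 0.67 in moderate hypercapnia. KCNJ10 had -0.45 ± 0.15 in mild and -0.68 ± 0.15 in moderate hypercapnia. APOLD1 had -2.33 ± 0.46 in mild and -1.85 ± 0.45 in moderate, ANGPT2 -0.75 ± 0.18 in mild and -0.61 ± 0.18 in moderate, and CCL14 -1.51 ± 0.37 in mild and -1.76 ± 0.38 in moderate hypercapnia. These genes lay on the same side of room air under both doses, and only THSD1 among those named had an adjusted p under 0.05 under the moderate one. ENSCHIG00000000053 did not: it had -2.40 ± 0.56 in mild and 0.20 ± 0.51 in moderate hypercapnia. The list medians of antigen presentation were 0.08 in mild and -0.84 in moderate hypercapnia, and those of leukocyte markers 0.40 in mild and -0.53 in moderate hypercapnia. Immediate early genes had a list median of -0.25 in mild and 0.07 in moderate hypercapnia.

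The mild response of NTS was tested against the mean response of mPFC, RTN and VRC in a fit of the 48 mild and room air libraries. It called 0 of 16181 genes (0.0%), with 1090 at an unadjusted p under 0.05 (6.74%). GSDME (ENSCHIG00000026791, chromosome 4), a gasdermin that forms membrane pores in dying cells, had the lowest p. It stood at 44.9, 60.8 and 68.9 CPM in mild NTS and 20.4, 49.7 and 56.7 CPM in room air NTS, where room air replicate 1 was far below the rest. Its log2 fold change was 0.40 ± 0.15 in NTS, -0.27 ± 0.15 in mPFC, -0.37 ± 0.16 in RTN and -0.65 ± 0.16 in VRC (SE). In the fit of the NTS libraries alone, the NTS value of GSDME was 0.13 with the myelin score, 0.19 with the neuron score and 0.24 without room air replicate 1. The difference of NTS from the others was 0.83 ± 0.18, with an adjusted p of 0.478. With the replicate number within a condition as a block, which reads the number as an animal, it was called with an adjusted p of 0.0405, the 1 gene so called (0.00618%).

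**Figure D5:**
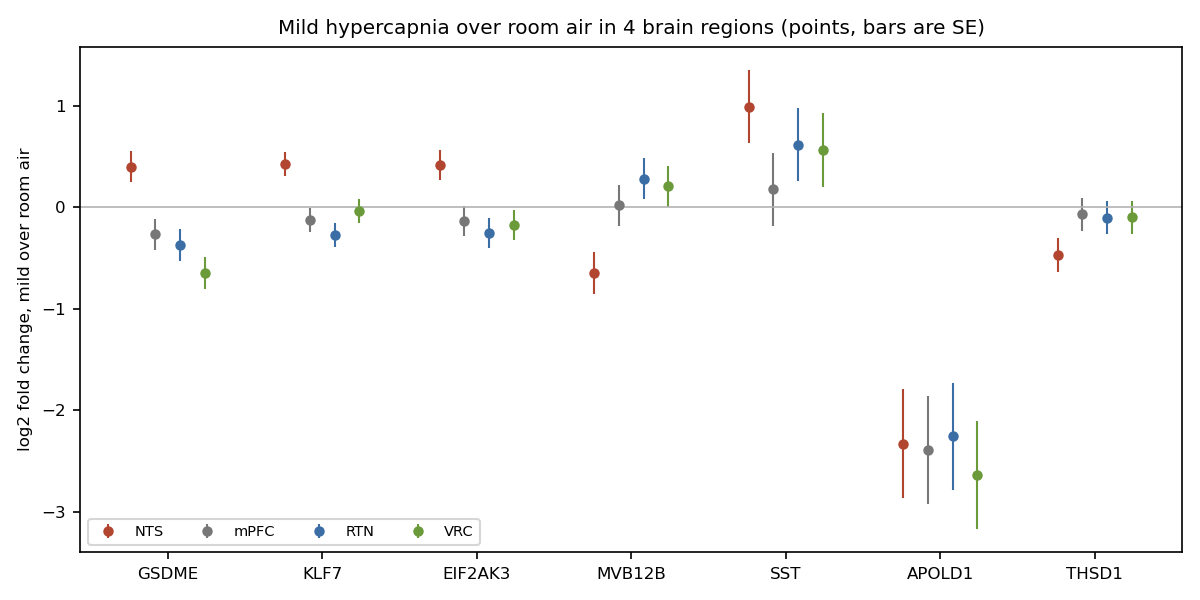
Log2 fold change of mild hypercapnia over room air (vertical axis) for 7 genes in NTS, mPFC, RTN and VRC, from the fit of 48 libraries. Points are estimates and bars are standard errors. GSDME, KLF7 and EIF2AK3 lie above 0 in NTS and below 0 in the other regions, while APOLD1 lies between -2.25 and -2.64 in all 4.

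KLF7, a transcription factor of neurons, had a log2 fold change of 0.43 ± 0.12 in NTS against -0.12 ± 0.12 in mPFC, -0.27 ± 0.12 in RTN and -0.04 ± 0.12 in VRC. Its NTS libraries stood at 18.3, 28.1 and 32.3 CPM in mild hypercapnia and 14.97, 19.8 and 25.7 CPM in room air. EIF2AK3, the kinase PERK of the unfolded protein response, had 0.42 ± 0.15 in NTS against -0.14 to -0.25 in the others, with 38.5, 59.3 and 76.02 CPM in mild and 26.2, 47.5 and 49.9 CPM in room air NTS. MVB12B, a subunit of endosomal sorting, had -0.65 ± 0.20 in NTS against 0.02 to 0.28 elsewhere, with 21.02, 28.6 and 49.7 CPM in mild NTS and 24.4, 44.6 and 90.9 CPM in room air NTS. INSIG1, a brake on cholesterol synthesis, gave a difference of 0.40 ± 0.12, with 79.6, 95.5 and 121 CPM in mild and 71.00, 86.6 and 114 CPM in room air NTS. HOXA2, a hindbrain homeobox gene with few reads in mPFC, gave a difference of 1.30 ± 0.43, with a log2 fold change of -3.20 ± 1.02 in mPFC, and had 19.7, 24.02 and 26.5 CPM in mild NTS and 16.6, 23.5 and 27.2 CPM in room air NTS. Each of these 5 had an adjusted p of 0.712 for the difference. With the myelin and neuron scores as covariates in the fit of NTS alone, the NTS values were 0.23 and 0.18 for KLF7, 0.21 and 0.24 for EIF2AK3, and -0.19 and -0.16 for MVB12B. Such scores were not fitted in the other regions. The difference from the other regions was 0.10 ± 0.60 for APOLD1 (adjusted p = 0.985), 0.54 ± 0.41 for SST (adjusted p = 0.781) and -0.38 ± 0.19 for THSD1 (adjusted p = 0.712).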

How the data were processed

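The deposited table holds, per the file headers, whole-number counts and RPKM values per gene in 72 libraries, for 21343 genes of which 6643 have no symbol. Per the submitters' processing notes, STAR, featureCounts and edgeR were among the authors' tools, after FastQC and Trimmomatic. No version, genome build, strand setting or handling of multiply mapped reads is given in the sources used here. The deposited RPKM values imply library sizes 1.0046 to 1.007 times the count sums, so no further scaling entered them. They were used only to compare levels between genes. The authors' column of gene lengths (unit: other) was read for that comparison alone. Per the labels' protocols, total RNA was made into libraries with a low-input kit.

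Tests used the counts, with edgeR 4.0.16 (filterByExpr with a minimum count of 10, TMM scaling, glmQLFit with its default settings and glmQLFTest) on all 18 NTS libraries and Benjamini-Hochberg adjustment over 15418 genes at a threshold of 0.05. The standard error is the log2 fold change divided by the square root of F. The regional test used the 48 mild and room air libraries of the 4 regions and 16181 genes. DESeq2 1.42.0 and limma 3.58.1 were alternatives, with R 4.3.3, Python 3.11.15 and pandas 2.3.3. CPM are TMM-scaled. List scores are means of log2 CPM with a prior count of 2.

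Every pair of libraries within a group differed beyond sampling noise, with a chi-square of 18.95 to 117 per degree of freedom over 15 mild pairs and of 18.2 to 216 over 15 room air pairs. Depth was 16401319 to 21898848 counts in mild hypercapnia and 14652747 to 28117775 in room air, and intervals on single counts cover counting error only. The filter and tests were checked on simulated counts.

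The 39 gene lists hold 922 entries, of which 793 matched a symbol in the table and 744 were tested. Members and lists were chosen with earlier results of these data known. Genes named were, in each direction, the 12 of lowest p with a symbol and a mean of at least 1 CPM. For each list they were up to 5 members per direction with an unadjusted p under 0.05, or else the member of lowest p. DESeq2 calls, the 6 genes of lowest p in the regional test and a fixed set of marker genes were added. PRPH, ISL1, GPR4, KDR, DLL4, FOS, ADCYAP1, UMPS, KDM7A, C12orf4, ALKBH1, USP38, ARID3B and SPATS1 were added after their values were seen. A few genes that these rules choose are not reported here. Only chromosomes are printed, since the build is not given.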

Additional observations from a re-analysis of the deposited data

Results flagged for a closer look

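In 42 of 248 groups of 6 NTS libraries, taken over the genes and list scores named above, 1 library stood so far from the others that the gap to its nearest neighbour passed Dixon's critical value. That is 16.9% of the groups. No chance rate can be set beside it, since CPM are skewed, many genes vary together and many were chosen by their p. Room air replicate 1 was the library apart in 11 genes and 1 score, room air replicate 5 in 9 genes, and mild replicate 2 in 7 genes and 1 score. These 3 libraries also had the lowest quality weights. The part of tissue makeup in these values was not tested.

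Room air replicate 1 was highest of its group for myelin and oligodendrocyte genes, with 1001.4 CPM for ERMN, 894.91 for MOG, 48.507 for ASPA, 21.441 for NKX2-2 and 4.4992 for MYRF. It was also highest for the endothelial genes CLDN5 (314.87 CPM) and KDR (144.47 CPM), for SLC9A9 (18.278 CPM) and S100A14 (28.893 CPM), and for the ribosomal protein score, at 7.4508 mean log2 CPM. It was lowest for EIF2AK3 (26.151 CPM) and GSDME (20.387 CPM).

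Room air replicate 5 was highest of its group for the cholinergic genes SLC5A7 (158.66 CPM) and CHAT (54.932 CPM), for the peptide and receptor genes UCN (0.75711 CPM) and OXTR (6.6037 CPM), and for SEMA5B (22.419 CPM), LIPA (81.053 CPM), LCMT2 (11.651 CPM) and DHX58 (58.339 CPM). Its 309.74 CPM of TTR, the choroid plexus transcript, stood far above the rest.

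Mild replicate 2 was highest of its group for ERMN (396.56 CPM) and NKX2-2 (14.07 CPM), for NFKBIA (116.45 CPM) and CSRNP1 (22.055 CPM), and for S100A14 (15.448 CPM) and ENSCHIG00000014169 (38.501 CPM). It was lowest for the glucose transporter SLC2A3 (89.503 CPM) and for the motor neuron score, at 2.8144 mean log2 CPM.

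Room air replicate 6 was highest of its group for APOLD1 (19.517 CPM), DUSP1 (135.66 CPM) and FOS (59.849 CPM) and for the immediate early gene score, at 3.557 mean log2 CPM. Single genes set other libraries apart. Mild replicate 1 was highest for WDR31 (15.941 CPM) and KDM7A (4.6116 CPM) and lowest for SLC9A9 (3.6437 CPM). Mild replicate 3 was highest for ABCC9 (8.623 CPM) and P2RY12 (81.067 CPM), mild replicate 4 for CCDC28A (61.218 CPM) and FOS (38.902 CPM), and mild replicate 6 for MGAT5 (12.663 CPM). Room air replicate 3 was highest of its group for HTR4 (1.6572 CPM).

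GSDME was the 1 gene whose mild response in NTS differed from the mean of the other regions past the threshold, and that in the fit with the replicate number as a block alone. The difference was 0.82931 on the log2 scale in the fit without that block. Room air replicate 1, its low NTS library, was kept in both fits.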

How the results depend on the processing

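The count of called genes was 0 under most alternatives, 5 with DESeq2, and 0 to 1 over the fits that leave out each library in turn, the 1 being SH2D4B without room air replicate 4. Genes at an unadjusted p under 0.05, 718 as reported, numbered 441 to 1800 in those fits, 2581 with limma quality weights, 387 with the myelin score and 333 with the neuron score as a covariate, and 2489 without the 3 libraries of lowest weight, a setting chosen after seeing the data, as was robust dispersion (722). DESeq2 gave 844, RLE scaling 722, no filter 945 and the 12 libraries alone 647. The cause was not tested.

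Mild and room air libraries of the same number did not deviate together: their correlations ran from -0.27 to 0.28, 2 of 6 over 0.1. The numbers were therefore not taken as pairs. A replicate block gave 1166 genes at an unadjusted p under 0.05 and changed no call. Within a condition, libraries of the same number in different regions correlated above 0.1 in 34 of 36 cases (median 0.28), and in the regional test that block called 1 gene, GSDME.

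The log2 fold change changed sign for AHSP (-0.019 with quality weights, -0.11 without the 3 libraries), HOXA2 (-0.054 with quality weights, -0.12 without the 3 libraries, and -0.018 to 0.12 with 1 library out) and FOS (-0.49 to 0.12 with 1 library out, the highest without room air replicate 6). Of the values of named genes under alternatives, 2296 kept their direction and side of the threshold, and 6 newly passed it. None of these genes was called in the main fit, so keeping that side meant staying uncalled. The count also leaves out the size of the log2 fold change. That size shrank by more than 1.5 times in 45 of 105 genes with the myelin score and 52 with the neuron score. The 2296 therefore do not measure stability. On simulated counts, drawn for each gene on its own, 38.7% of 1.5-fold, 71% of 2-fold and 92.1% of 4-fold changes were recovered. These shares may not hold for libraries that differ in tissue makeup.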

Other observations

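Mild and room air libraries did not overlap in 20 genes, with mild above in 0.0454% of the 15418 tested and below in 0.0843%. Shares this small are described here and not read as a result. Of the 20, 7 with a symbol belong to no comparison above. They were named after their values were seen, and none passed the edgeR test (adjusted p = 0.848 for each). UMPS, which makes uridine monophosphate in pyrimidine synthesis, stood at 18.9, 20.4 and 23.5 CPM in mild hypercapnia and 13.2, 17.9 and 18.5 CPM in room air (log2 0.29 ± 0.10). KDM7A, a histone demethylase, had 3.28, 3.41 and 4.61 CPM in mild hypercapnia against 2.18, 2.68 and 3.12 CPM in room air (log2 0.43 ± 0.18). C12orf4 had 38.1, 41.4 and 46.3 CPM in mild hypercapnia against 33.7, 36.2 and 37.9 CPM in room air (log2 0.23 ± 0.08). For UMPS, KDM7A and C12orf4 the lowest mild library was within 1 CPM of the highest room air one.

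On the lower side, ALKBH1, a dioxygenase that removes methyl groups from nucleic acids, had 11.95, 13.5 and 15.4 CPM in mild hypercapnia and 15.5, 16.2 and 18.03 CPM in room air (log2 -0.27 ± 0.10). USP38, a deubiquitinase, had 22.5, 25.9 and 28.4 CPM in mild hypercapnia and 28.9, 30.8 and 33.6 CPM in room air (log2 -0.27 ± 0.09). ARID3B, a DNA-binding protein, had 1.02, 1.10 and 1.248 CPM in mild hypercapnia and 1.27, 1.56 and 2.16 CPM in room air (log2 -0.53 ± 0.21), and SPATS1 2.99, 3.58 and 3.79 CPM in mild hypercapnia and 3.82, 4.71 and 5.83 CPM in room air (log2 -0.44 ± 0.14). The groups nearly met in each of these lower genes, as at 15.4 against 15.5 CPM for ALKBH1.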
